A study of Mus musculus with 8 samples.

Results

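The Klf6 domain is the stretch of mouse chromosome 13 from 3 to 9 Mb (mm10) around Klf6, Pitrm1, Pfkp and Adarb2, described here by its replication timing in embryonic stem cells with and without dTAG treatment. Its 4 named genes were selected on the difference between dTAG and control timing in these same profiles, so every dTAG against control value at them is a description and carries no test. The members are 4 of the 26 protein-coding genes with a midpoint in the domain and of 21523 scored protein-coding genes in the genome. The domain holds 1201 of the 514245 positions, spaced 5 kb apart, at which all 4 profiles have a score.

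The cells were mouse embryonic stem cells (mESC), either control or collected 2 days after dTAG, a small molecule that directs a tagged protein to degradation, and the series names YY1 as its protein. A BrdU pulse of 2 h marked newly copied DNA, which was recovered from cells sorted as early or late in S phase. Each timing profile rests on 1 early and 1 late sample, so the 8 samples gave 4 profiles: control replicates 1 and 2 and dTAG replicates 1 and 2. Culture and treatment are given in the labels only by citation, which leaves unstated whether the replicates were separate cultures, how the controls were handled, or whether controls carry the tagged allele. In dTAG replicate 1 the fraction letters in the titles disagree with the labelled fractions, but over the domain its scores correlated positively with those of dTAG replicate 2 (Pearson r = 0.989 over 1201 positions, which share smoothing). The SD printed after each group mean is over n = 2 profiles and may reflect technical spread only.

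DNA is copied in a fixed order during S phase, in large domains whose origins fire at similar times. Early domains are usually rich in genes and open chromatin, late domains are usually gene-poor and lie at the nuclear periphery, and the sloping stretches between them are called timing transition regions. YY1 is a zinc finger transcription factor that binds many promoters and enhancers and can bring them together by forming dimers. The domain holds genes of unlike function: Klf6 encodes a zinc finger factor of the Krüppel-like family, Pitrm1 a mitochondrial metallopeptidase that degrades cleaved presequences, Pfkp the platelet-type phosphofructokinase of glycolysis, and Adarb2 a brain-expressed relative of the RNA-editing adenosine deaminases for which no editing activity has been shown.

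The deposited score is signed and its direction is not stated, and a high score is read here as early replication. All 6 genes used to check the stem cell label, Dppa2, Dppa4, Zfp42, Pou5f1, Sox2 and Nanog, had a control mean above 0, as had 17170 of 21523 protein-coding genes (79.8%). Put in order of size, the scores of control 1 and dTAG 1 were the same to within 5.16e-05, and dTAG 1 matched the sign-turned dTAG 2 to within 0.000117. The spread of each profile was therefore set by the normalization, and a score gives a rank along the genome more directly than a time. Read depth behind the scores is unknown.

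The promoters of the 3 members whose groups separated are printed because Klf6 and its neighbours Pitrm1 and Pfkp moved in opposite directions. Each sequence runs 5′ to 3′ on the gene's strand of the GRCm38.p6 assembly (mm10 coordinates). It covers 250 bases before to 50 bases after a start given by RefSeq. That start is the outer end of the gene span given below for Klf6, and lies inside the span for Pitrm1, Pfkp and Adarb2. The Klf6 window is chr13:5861239-5861538 (+ strand), the Pitrm1 window chr13:6547907-6548206 (+ strand) and the Pfkp window chr13:6648722-6649021 (- strand). Capitals mark the GC box GGGCGG or its complement CCGCCC, and the short YY1 core GCCAT or its complement ATGGC.
Klf6: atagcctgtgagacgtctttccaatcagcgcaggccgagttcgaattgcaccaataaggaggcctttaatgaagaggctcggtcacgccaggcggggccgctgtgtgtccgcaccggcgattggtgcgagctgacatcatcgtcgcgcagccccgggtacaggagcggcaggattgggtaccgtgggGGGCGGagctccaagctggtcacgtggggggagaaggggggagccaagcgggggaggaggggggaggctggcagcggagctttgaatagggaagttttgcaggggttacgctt
Pitrm1: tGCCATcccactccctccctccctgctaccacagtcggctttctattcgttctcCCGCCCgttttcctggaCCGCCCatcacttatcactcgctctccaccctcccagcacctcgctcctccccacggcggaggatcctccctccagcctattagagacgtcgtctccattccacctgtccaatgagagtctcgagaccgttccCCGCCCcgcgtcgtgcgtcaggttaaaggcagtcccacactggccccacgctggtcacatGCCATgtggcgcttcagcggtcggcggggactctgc
Pfkp: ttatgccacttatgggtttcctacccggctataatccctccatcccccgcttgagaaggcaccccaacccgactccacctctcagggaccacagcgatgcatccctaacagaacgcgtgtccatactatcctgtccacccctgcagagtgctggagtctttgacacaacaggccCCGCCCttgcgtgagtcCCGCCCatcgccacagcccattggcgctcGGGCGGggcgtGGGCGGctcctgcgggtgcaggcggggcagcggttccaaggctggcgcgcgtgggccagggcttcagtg
All 3 windows were GC-rich, at 63% for Klf6 and Pitrm1 and 64.7% for Pfkp, against a median of 52.7% over 32851 RefSeq promoters. They held 23, 23 and 21 CpG dinucleotides, where the median promoter held 7. The Adarb2 promoter, which is not printed, had a GC content of 52.7% and 9 CpG dinucleotides. The GC box, the sequence that SP and Krüppel-like factors bind, occurred 1 time at Klf6, 3 times at Pitrm1, 4 times at Pfkp and 1 time at Adarb2, and 35.7% of all promoters held it at least once. The longer YY1 core GCCATNTT (both strands), inside which the short core lies, was in none of the 4 windows and in 6.05% of all promoters. The short core was found only at Pitrm1 among the 4, with 2 matches, and in 40.5% of all promoters. These are letter matches within 300 bases, and binding was not measured.

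Klf6 lay in a local timing maximum that scored higher in both dTAG profiles than in both controls. The gene (chr13:5861489-5870393, + strand) spans 8.9 kb, and at its midpoint it scored 0.13 in control 1, -0.72 in control 2, 1.42 in dTAG 1 and 0.93 in dTAG 2. The dTAG scores were both above the controls without overlap, and the lower of them exceeded the higher control by 0.80. The control mean was -0.29 ± 0.60 and the dTAG mean 1.18 ± 0.35 (SD, n = 2 each), a difference of 1.47 with a limma SE of 0.43. Within replicate 1 the difference was 1.29, and within replicate 2 it was 1.65. Among protein-coding genes ordered by score, Klf6 moved from percentile 19.7 to 27.1 in replicate 1 and from 17.5 to 27.0 in replicate 2, so it stayed in the later-replicating part of the gene list. At the gene's start and at its end the difference was 1.47 as at the midpoint.

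Pitrm1 and Pfkp lie 678 kb beyond Klf6 and scored lower in dTAG. They are convergent genes whose ends overlap by 285 bases, so their scores come from almost the same place and are not 2 independent measurements. Pitrm1 (chr13:6548122-6580158, + strand, 32.0 kb) scored 2.02 in control 1, 2.33 in control 2, 1.51 in dTAG 1 and 1.30 in dTAG 2. Both dTAG scores lay below both controls, by at least 0.51. The mean was 2.18 ± 0.22 in control and 1.41 ± 0.15 in dTAG (SD, n = 2 each). The means differed by -0.77, and the profiles by -0.51 in replicate 1 and by -1.03 in replicate 2.

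Pfkp (chr13:6579874-6649060, - strand, 69.2 kb) scored 2.33 in control 1, 2.52 in control 2, 1.84 in dTAG 1 and 1.60 in dTAG 2. The groups did not overlap here either, with the dTAG profiles lower. The mean was 2.43 ± 0.13 in control and 1.72 ± 0.17 in dTAG (SD, n = 2 each), a difference of -0.71, and within the replicate numbers the differences were -0.49 and -0.92. Its percentile among genes changed from 34.2 to 30.2 in replicate 1 and from 41.0 to 32.3 in replicate 2. Pfkp scored above 0 in all 4 profiles, and the separation of its groups, 0.49, lies just short of the gap of 0.5 used below to count separated genes and windows.

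Adarb2 (chr13:8202526-8768762, + strand) is 566 kb long and replicated along a slope, so its midpoint value describes a point on a transition. The midpoint scored -1.11 in control 1, -2.46 in control 2, -0.82 in dTAG 1 and -1.77 in dTAG 2. The groups overlapped: the difference within each replicate number was positive (0.29 and 0.69), but replicate 2 lay below replicate 1 in both conditions. The mean was -1.78 ± 0.96 in control and -1.29 ± 0.67 in dTAG (SD, n = 2 each). Between the means the difference was 0.49, and leaving out a profile moved it from -0.18 (without control 2) and 0.01 (without dTAG 1) to 0.97 (without dTAG 2) and 1.17 (without control 1). Each of these sets unequal numbers of replicate 1 and replicate 2 profiles against each other.

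Along Adarb2 the score rose from the promoter end to the far end by 1.08 per 100 kb in control 1, 1.09 in dTAG 1, 1.26 in control 2 and 1.29 in dTAG 2. The profiles of 1 replicate number thus had nearly the same slope, and the slope was steeper in replicate 2. The score crossed 0 within the gene at 8.575 Mb in control 1, 8.555 Mb in dTAG 1, 8.61 Mb in control 2 and 8.585 Mb in dTAG 2. In dTAG the crossing lay 20 and 25 kb nearer the promoter in the 2 replicates, which is a few positions of a smoothed profile. At the promoter end the scores of control and dTAG were nearly the same, -3.33 and -3.30 in replicate 1 and -4.60 and -4.56 in replicate 2.

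**Figure D1:**
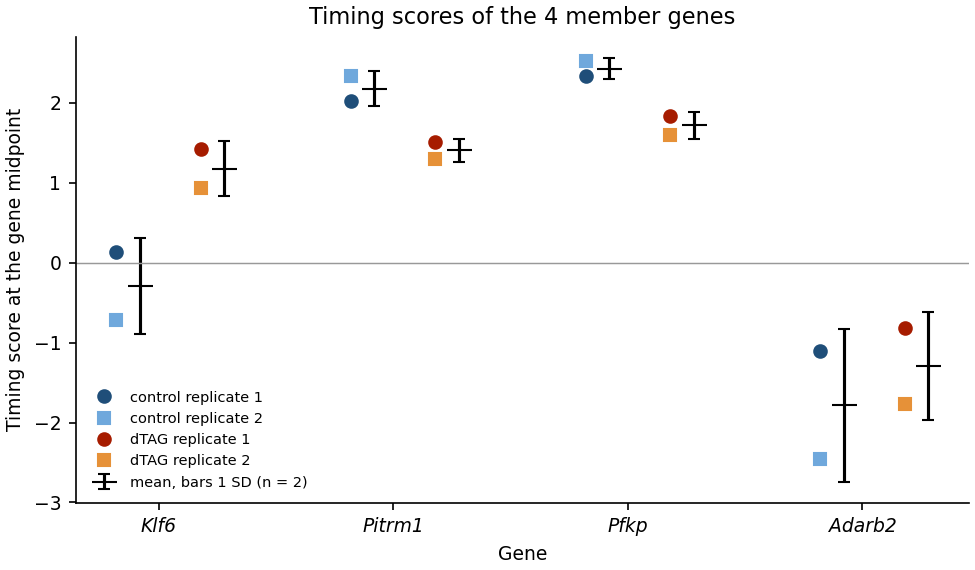
The timing score at the midpoint of each of the 4 members is plotted on the vertical axis (score units, higher read as earlier) for the 2 control and 2 dTAG profiles. Klf6 is higher in both dTAG profiles (1.42 and 0.93 against 0.13 and -0.72), Pitrm1 and Pfkp are lower, and the groups overlap at Adarb2.

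In the middle of the domain each profile had a peak near Klf6 and a peak at Pfkp with a late valley between them, and in dTAG the peaks were closer in height than in control. The Klf6 maximum scored 0.47 in control 1, -0.36 in control 2, 1.66 in dTAG 1 and 1.12 in dTAG 2. It lay at 5.7 Mb in both controls, 5.78 Mb in dTAG 1 and 5.695 Mb in dTAG 2, so Klf6 itself sat on the shoulder of the peak and not at its top. The Pfkp maximum lay between 6.605 and 6.635 Mb, inside the gene, and scored 2.34, 2.53, 1.84 and 1.62 in the same order. The Klf6 peaks were higher in both dTAG profiles and the Pfkp peaks lower, without overlap.

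The height of the Pfkp peak over the Klf6 peak was 1.87 in control 1 and 2.89 in control 2, against 0.18 in dTAG 1 and 0.50 in dTAG 2. Its mean was 2.38 ± 0.72 in control and 0.34 ± 0.23 in dTAG (SD, n = 2 each), a change of -1.69 in replicate 1 and -2.38 in replicate 2. Because this is a difference between places within a profile, a shift of a whole profile does not enter it. Pfkp remained the higher peak in all 4 profiles.

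The late valley between the peaks moved toward Pfkp. Its lowest point was at 6.15 Mb in control 1 and 6.145 Mb in control 2, and at 6.245 Mb in dTAG 1 and 6.22 Mb in dTAG 2, a shift of 95 kb in replicate 1 and 75 kb in replicate 2. Its score was -2.46 in control 1, -4.02 in control 2, -1.86 in dTAG 1 and -3.34 in dTAG 2. The valley scored higher in dTAG within each replicate number (by 0.59 and 0.68), while the groups overlapped because both replicate 2 profiles were deeper.

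**Figure D2:**
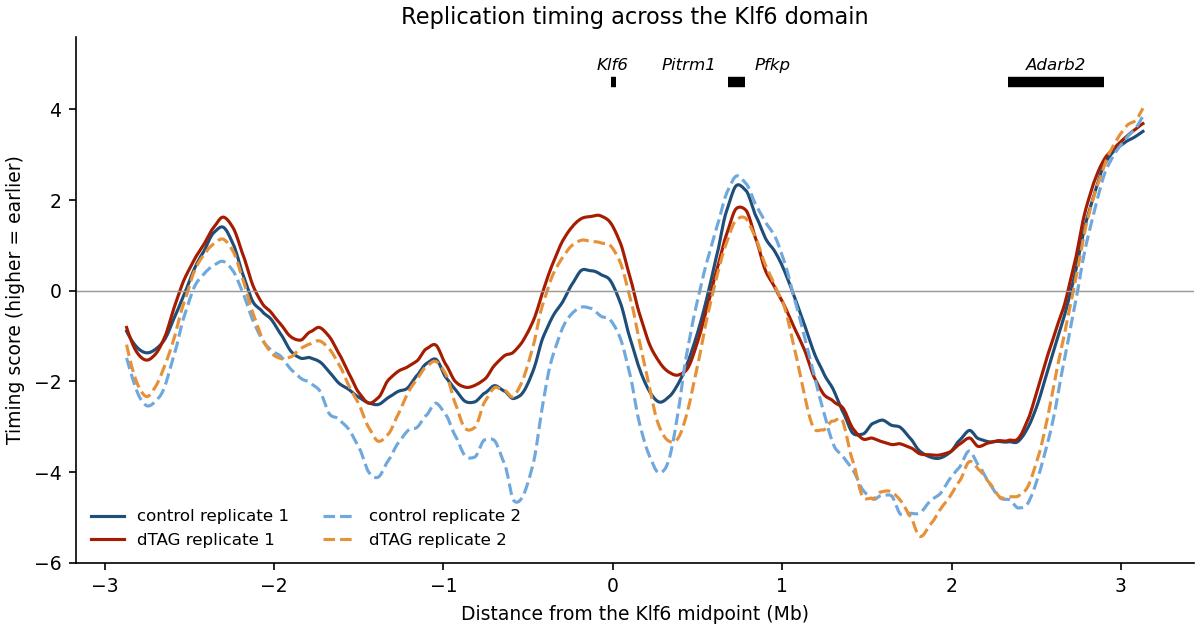
The timing score (vertical axis, score units, higher read as earlier) of each of the 4 profiles is drawn against the distance from the Klf6 midpoint in Mb, with bars for the 4 members. Around Klf6 both dTAG lines run above both control lines and at Pfkp below them, while over the late stretch between Pfkp and Adarb2 the lines pair by replicate number.

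Counting the segments with a score above 0 gives the same picture as lengths. The segment at Klf6 was 280 kb long in control 1 and absent in control 2, where the peak stayed below 0, and measured 535 kb in dTAG 1 and 480 kb in dTAG 2. The segment at Pfkp measured 490 kb in control 1, 545 kb in control 2, 385 kb in dTAG 1 and 380 kb in dTAG 2, and was shorter in dTAG by 105 and 165 kb. Gdi2, near the start of the domain, encodes a GDP dissociation inhibitor of Rab GTPases. Its segment measured 370 kb in control 1, 290 kb in control 2, 445 kb in dTAG 1 and 345 kb in dTAG 2. There the groups overlapped. These lengths depend on where 0 falls, which the normalization set differently in the 2 replicate numbers.

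The stretch around Klf6 in which both dTAG profiles lay above both controls was continuous for 875 kb, from 5.22 to 6.095 Mb. Over it dTAG was higher by 1.51 on average, by 1.18 in replicate 1 and by 1.83 in replicate 2. The part with a gap of at least 0.5 ran for 655 kb, from 5.385 to 6.04 Mb. On the Pfkp side both dTAG profiles lay below both controls for 780 kb, from 6.285 to 7.065 Mb, with a mean difference of -0.79 (-0.49 and -1.09). There the gap of at least 0.5 held over 250 kb from 6.715 to 6.965 Mb and over 80 kb from 6.53 to 6.61 Mb. The difference turned from positive to negative at 6.29 Mb in replicate 1 and at 6.23 Mb in replicate 2, 420 and 360 kb from Klf6.

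The largest differences in the 2 replicate numbers were not at the same place. In replicate 1 the highest value was 1.35 at 5.965 Mb, 95 kb beyond Klf6. In replicate 2 it was 2.61 at 5.385 Mb, 485 kb before Klf6, next to the score of -4.66 at 5.305 Mb, where control 2 had a local minimum (with a prominence of at least 0.5) and the other 3 profiles had none. The lowest values were -0.81 at 6.845 Mb in replicate 1 and -1.45 at 6.355 Mb in replicate 2. The 2 difference curves therefore shared their signs around Klf6 and Pfkp but differed in shape.

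**Figure D3:**
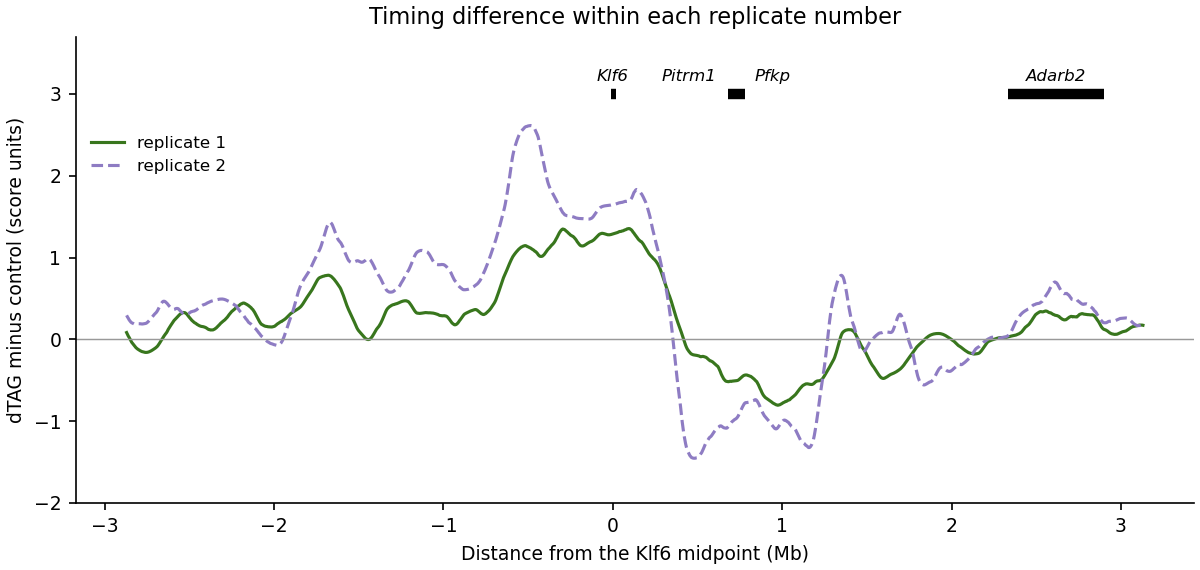
The dTAG minus control score (vertical axis, score units) within each replicate number is drawn against the distance from the Klf6 midpoint in Mb. Both curves are above 0 around Klf6 and below 0 around Pfkp, with the highest point at 1.35 in replicate 1 and 2.61 in replicate 2.

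Averaged over 500 kb stretches, the stretch from 5.5 to 6 Mb that holds Klf6 scored -0.05 in control 1, -0.84 in control 2, 1.21 in dTAG 1 and 0.76 in dTAG 2. Both dTAG profiles were higher, and the mean difference of 1.43 (1.26 and 1.60) stood at rank 3 of 5145 stretches of the genome from the top. The stretch before it, from 5 to 5.5 Mb, had a difference of 1.22 (0.76 and 1.68) and rank 7. The Pfkp stretch from 6.5 to 7 Mb had a difference of -0.79 (-0.61 and -0.98) and rank 74 from the bottom. Limma called 0 of the 5145 stretches, with 37 at an unadjusted p below 0.05. The ranks restate the choice of the domain and give no support to it.

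In windows of 50 kb, 13 of the domain's 120 windows had both dTAG scores above both controls by at least 0.5, where 273 of 51425 windows in the genome did (0.531%). All 10 windows from 5.5 to 6 Mb were among them. The reverse, both dTAG scores below both controls by at least 0.5, held in 6 windows of the domain, against 1.09% of the genome. Without control 1 the counts were 50 above and 13 below, without dTAG 2 there were 25 above, and without dTAG 1 there were 16 below. Leaving out a profile can only keep or raise such a count. With any gap counted, 30 windows were above (10.9% of the genome) and 15 below (8.53%). Since the domain was chosen on this contrast, its excess over these shares is not evidence of anything further.

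No domain window passed limma's test of dTAG against control at an adjusted p of 0.05, and none did in the genome (0%). At an unadjusted p below 0.05 there were 16 of 120 windows in the domain and 500 of 51425 in the genome. The domain was chosen on this contrast, so its larger share is a description. Over genes limma called 0 of 21523 as well (0%), with 173 at an unadjusted p below 0.05. With 2 profiles a group, the spread between replicate numbers entered the error of this model, the offset set by the normalization included. The 0 calls therefore do not show an absence of change.

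The windows with a gap of at least 0.5 formed an earlier region of 650 kb around Klf6, from 5.4 to 6.05 Mb, when windows up to 100 kb apart were joined. It was the longest of 89 such regions in the genome, whose median was 100 kb. The later region at Pfkp ran for 400 kb from 6.55 to 6.95 Mb, 16th in length of 125, with a median of 200 kb. The distance between them was 500 kb. In the genome 4 of 89 earlier regions (4.49%) and 4 of 125 later regions (3.2%) had a region of the opposite kind within 500 kb, the pair at Klf6 and Pfkp included. That limit is the distance of this pair itself, and within 1000 kb the counts were 11 (12.4%) and 9 (7.2%).

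The difference between replicate numbers was not used to choose the domain, but it was not free of the processing: the scores of replicate 2 have the sign-turned distribution of replicate 1, with a genome mean of 0.20 in both replicate 1 profiles and -0.20 in both replicate 2 profiles. Limma called 36 of the 120 domain windows lower in replicate 2 than in replicate 1 and 0 higher, and 24.7% of windows in the genome were called lower. The calls were uneven along the domain. On the Adarb2 side, from 7.25 to 9 Mb, 22 of 35 windows were called lower in replicate 2, against 1 of 20 on the Pfkp side (6.25 to 7.25 Mb) and 7 of 45 on the Klf6 side (4 to 6.25 Mb). Leaving out control 1 gave 13 calls in place of 36, leaving out dTAG 1 gave 10 and leaving out dTAG 2 gave 65. Putting all profiles on one common distribution gave 16, and centring each chromosome on its mean gave 7. Whether these shares differ was not tested.

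Over the whole domain, the stretches around Klf6 and Pfkp that it was chosen for included, the dTAG minus control score was positive on average. Its mean over the 1201 positions was 0.23 in replicate 1 and 0.40 in replicate 2, against 0.004 and 0.15 over the other 22264 positions of chromosome 13. The differences in replicates 1 and 2 correlated with r = 0.877 in the domain, 0.312 on the rest of the chromosome and 0.357 over the genome, where all positions share smoothing with their neighbours and no test was made. Their signs matched at 85.8% of domain positions and 58.9% of the other positions of the chromosome. Choosing the domain on the dTAG against control difference favours such agreement inside it, so these values are descriptions.

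Of the 26 protein-coding genes, 21 had a positive difference in both replicate numbers, and Pitrm1 and Pfkp were the 2 with a negative difference in both. Over the genome the 2 differences shared a sign, of either kind, at 60.7% of positions. That is not the share of genes positive in both replicate numbers, which is not given here. Neighbouring genes lie in the same smoothed stretches, so the 26 are not separate measurements. The groups did not overlap at 8 genes with dTAG higher and at 2 with dTAG lower, where the shares of all genes were 10% and 8.41%. With a gap of at least 0.5 there were 2 higher, Klf6 and Akr1c13, and 1 lower, Pitrm1, against 0.339% and 0.767% of all genes. Klf6 had the highest difference of the 26 and Pitrm1 the lowest.

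**Figure D4:**
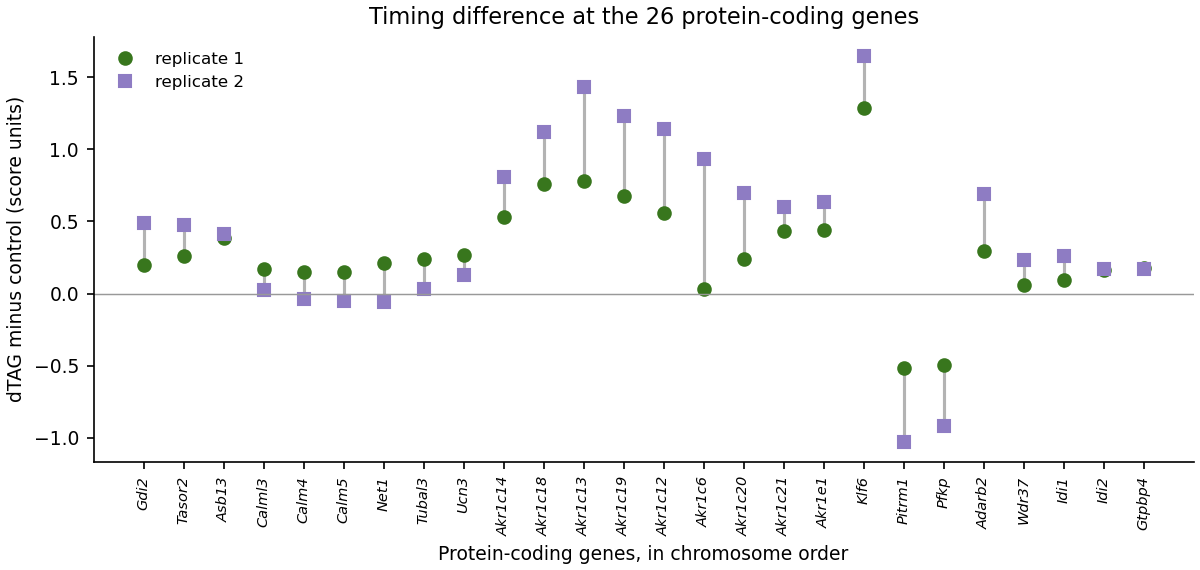
The dTAG minus control score (vertical axis, score units) is shown for the 26 protein-coding genes of the domain in chromosome order, with a circle for replicate 1 and a square for replicate 2. Klf6 has the highest points (1.29 and 1.65), Pitrm1 and Pfkp are the only genes with both points below 0, and the 9 aldo-keto reductase genes lie above 0 in both replicates.

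The neighbours of Klf6 at lower coordinates are a cluster of aldo-keto reductases, enzymes that reduce steroids and other carbonyl compounds. The 9 of them in the domain (chr13:4048991-4609164) replicated late, with control scores from -4.08 to -1.47 and dTAG scores from -3.29 to -0.82. All 9 differences were positive in both replicate numbers, from 0.03 to 0.78 in replicate 1 and from 0.60 to 1.43 in replicate 2. Between the group means they ran from 0.47 to 1.10 with a median of 0.67. At 5 genes the groups did not overlap, which held with dTAG higher for 10% of all genes. Over all 21523 genes the median was -0.02.

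Akr1c13 had the largest difference of the cluster and scored -1.81 in control 1, -2.73 in control 2, -1.03 in dTAG 1 and -1.30 in dTAG 2. Both dTAG scores were higher, by 0.78 and 1.43 within the replicate numbers, and the gene stayed late in all 4 profiles. Akr1c18 and Akr1c19 followed with 0.94 and 0.96, then Akr1c12 with 0.85 and Akr1c14 with 0.67. Akr1e1, the nearest gene to Klf6 on that side at 1252 kb, had a difference of 0.54, Akr1c21 0.52, Akr1c6 0.48 and Akr1c20 0.47. Akr1c6 was the latest of the 26 genes in control, at -2.50 and -4.08, and its difference in replicate 1 was 0.03. Without control 2 these 4 were below 0, at -0.03 for Akr1e1, -0.09 for Akr1c21, -0.31 for Akr1c6 and -0.30 for Akr1c20, and without control 1 they lay between 1.11 and 1.28. Akr1c20 was at -0.07 without dTAG 1. Each of these values sets unequal numbers of replicate 1 and replicate 2 profiles against each other. Without control 2 the median of all genes was -0.22. The genes of the cluster are related copies, and whether reads are shared between them was not measured. They lie close together in a smoothed profile and are not separate measurements. Akr1cl, a family member on chromosome 1, had a difference of 0.21.

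The genes at the far ends of the domain differed little. Gtpbp4, a nucleolar GTPase of ribosome assembly, was the earliest of the 26, with 3.47 in control 1, 3.75 in control 2, 3.65 in dTAG 1 and 3.92 in dTAG 2. Wdr37, the gene after Adarb2, scored 3.12 and 3.06 in the controls and 3.18 and 3.29 in dTAG. The groups overlapped at Gtpbp4 (difference 0.17), and at Wdr37 both dTAG scores were slightly higher (difference 0.15). At the other end Gdi2 had a difference of 0.34.

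Genes of like function elsewhere in the genome were set beside the members. Of 26 Krüppel-like and SP factors, 22 had a control mean above 0, and Klf6 (1.47) had the highest difference of all. The median of the list was -0.01, or -0.02 without Klf6, against -0.02 over all genes, 21 of 26 differed by less than 0.5, and at 11 the sign differed between the replicate numbers. Limma called 0 genes of the list, and the 1 gene at an unadjusted p below 0.05 was Klf6, which was selected on this contrast. Over all genes 173 of 21523 had such a p. Klf7, the closest relative of Klf6, was late and scored -0.82 in control 1, -2.83 in control 2, -0.29 in dTAG 1 and -1.44 in dTAG 2. Its groups overlapped, with dTAG higher within each replicate number and a difference of 0.96 between the means, which was -0.05 without control 2, 0.38 without dTAG 1, 1.53 without dTAG 2 and 1.96 without control 1. Each value with a profile left out sets unequal numbers of replicate 1 and replicate 2 profiles against each other. Klf4 and Klf5, factors of naive pluripotency, differed by 0.10 and 0.09 and Klf2 by -0.21, while Sp2 had the lowest difference at -0.62.

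**Figure D5:**
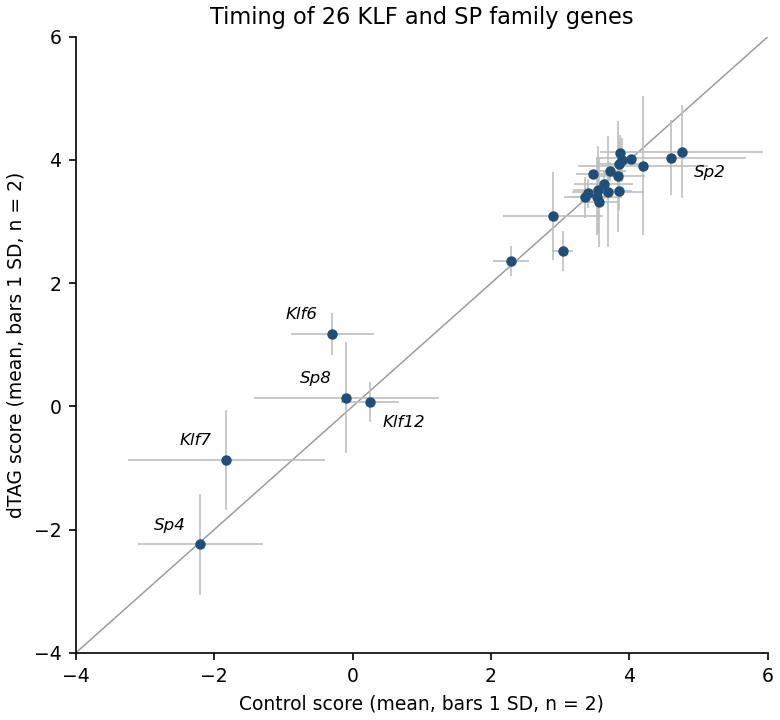
The mean dTAG score (vertical axis) is plotted against the mean control score (horizontal axis) for 26 Krüppel-like and SP factors, with bars for 1 SD over n = 2 profiles and a diagonal line of equality. Most genes lie near the line above 2, and Klf6 lies farthest above it at -0.29 in control and 1.18 in dTAG.

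In glycolysis 28 of 29 genes had a control mean above 0, and the median difference was -0.07. The other phosphofructokinases had differences of either sign: Pfkl, the liver type, differed by -0.22 and Pfkm, the muscle type, by 0.32. Limma called 0 of the 29, with 0 at an unadjusted p below 0.05. Ldha, lactate dehydrogenase A, had the highest difference at 0.36.

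The M16 metallopeptidases, to which Pitrm1 belongs, were early in 7 of 7 cases, and Pitrm1 had the lowest difference (-0.77) and the lowest control mean. Ide, the insulin-degrading enzyme, differed by -0.02 and Nrd1, nardilysin, had the highest difference at 0.36. Of 8 RNA adenosine deaminase genes 6 were early, with a median difference of -0.15. Adarb2 had the highest difference of them, 0.49, and Adar and Adarb1, the active editing enzymes, differed by -0.28 and -0.06. Adat2, a tRNA deaminase subunit, had the lowest at -0.72. In both families limma called 0 genes, with 0 at an unadjusted p below 0.05.

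The protein-coding genes outside the domain whose 4 scores lay nearest those of Klf6 by Euclidean distance were Gyg, Adcyap1, Cp, Vmn2r3 and Vmn1r210, at distances of 0.591, 0.633, 0.660, 0.663 and 0.676. Gyg (chromosome 3), glycogenin, scored 0.32 and -0.41 in control and 1.03 and 0.67 in dTAG. Cp, ceruloplasmin, lies close to Gyg on chromosome 3 and shares its stretch, so the 2 are 1 case. Adcyap1 (chromosome 17) encodes the neuropeptide PACAP, and Vmn2r3 and Vmn1r210 are vomeronasal receptors, with Vmn1r210 on chromosome 13. In all 5 both dTAG scores were above both controls, which the choice by distance to Klf6 fixed in large part.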

How the data were processed

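Repli-seq compares BrdU-labelled DNA from early and late S phase, here from 40000 cells a fraction. The deposited table holds a signed score per 5 kb position for 4 profiles; per the file headers and name, the authors smoothed the score with Loess and quantile normalized it. The submitters' processing notes name Bowtie2, SAMtools, bedtools and mm10, without versions. How the score was computed (formula, log base, direction), and which bin edge a position names, is unstated. The smoothing span is not defined either, although the file name holds a size just before Loess. Samples whose labels have no replicate number were called replicate 1. Tests had been planned for log ratios; without a known log base, differences are in score units.

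Each gene took the score of the 5 kb bin holding its midpoint, with the position read as the bin's end. Gene positions and promoters came from RefSeq tables on GRCm38.p6. Scores were averaged over windows of 50 kb and stretches of 500 kb on 19 autosomes and chromosome X, where at least 0.5 of positions had values. Models with 1 term, the group or the replicate number, were fitted across all features by limma 3.58.1 (R 4.3.3, lmFit, eBayes). The 2-sided p-values were adjusted after Benjamini-Hochberg at a threshold of 0.05. The code was checked on simulated data with larger effects than the domain windows show and a small, equal spread. That check does not show the power of the test in these profiles. Python 3.11.15 with scipy 1.17.1 located peaks, and matplotlib 3.10.9 drew the figures. The members, gene lists and motifs were chosen with earlier results of these data known. Named genes are the members, their neighbours, the aldo-keto reductases, the extremes of the domain and of each list (1 of them is not reported here), the nearest relatives of each member, and the 5 genes nearest Klf6 in score; gene lists are described by counts and medians. Alternatives left out each profile, put all profiles on one distribution, centred chromosomes, changed the window size and gap, and added the replicate number as a block.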

Additional observations from a re-analysis of the deposited data

How the results depend on the processing

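With a profile left out in turn, Klf6 ranged from 1.04 to 1.89, Pitrm1 from -0.93 to -0.62, Pfkp from -0.83 to -0.59, the 5.5 to 6 Mb stretch from 1.04 to 1.83 and the change in peak height from -2.55 to -1.52, while Adarb2 ranged from -0.18 to 1.17, with a negative value without control 2. The median of the Krüppel-like and SP list ranged from -0.35 to 0.27, as the median of all genes ranged from -0.27 to 0.21. The 13 domain windows above became 13 to 50 with a profile left out, 21 with all profiles on one distribution, 21 with chromosomes centred, 6 in windows of 100 kb, 28 in windows of 25 kb, 30 with no minimum gap and 0 with a gap of 1. The 6 below became 6 to 16, 3 on one distribution, 3 in windows of 100 kb, 14 in windows of 25 kb, 11 with a gap of 0.25, 15 with no minimum gap and 0 with a gap of 1. The 36 windows lower in replicate 2 became 10 to 65 with a profile left out, 16 on one distribution, 7 with chromosomes centred, 21 and 74 in windows of 100 and 25 kb, and 67 with the group as a covariate. Counts in windows of 100 or 25 kb cannot be set directly against those at 50 kb. The same length holds fewer or more windows. The count of windows below the controls was added after the data were seen. Leaving out a profile or lowering the gap can only keep or raise the counts above and below, and a larger gap can only keep or lower them. The cause of the other changes was not tested. Of 300 alternative values of 50 other named genes, 42 changed sign, 39 of them with a profile left out. While 299 moved by less than 1 SD, this SD pools the spread within both groups. Leaving out a profile cannot move a difference by more than that SD, so the 299 is no measure of stability.

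Deviations from the group means of same-numbered profiles correlated at 0.765 over windows. Same-numbered profiles also share 1 distribution of scores, which the normalization set. With 2 pairs, and labels that do not say what the number marks, a pairing of cultures is not established. With the replicate number as a replicate block, the differences were the same, and limma called 0 windows (smallest adjusted p = 0.231, 6224 windows at an unadjusted p below 0.05, 54 in the domain). With trended and robust variance added to the block it called 29 domain windows, 20 earlier and 9 later, and 2.84% of the genome. In 500 kb stretches, where the model without the block made 0 calls, the block gave 330 (6.41%), the Klf6 stretch at an adjusted p of 4.67e-05 and the Pfkp stretch at 0.00864 by limma, and with the edges moved by 5 kb 111 calls (2.16%), at 0.00709 and 0.0454. These p-values concern the contrast that chose the domain and are descriptions.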
